A study of Mus musculus with 20 samples.

Results

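Markers of astrocytes and Bergmann glia, 10 genes in all, were followed through 20 RNA-seq libraries from cultures of mouse cerebellar granule neurons: Gfap, Aqp4, Slc1a3, Slc1a2, Aldh1l1, Apoe, Sox9, Gdf10, Hopx and Fabp7. They were taken by symbol from a table of 24411 genes, and all 10 were present and passed the filter on low counts that left 15284 genes. The libraries fall into 4 groups of 5, numbered 1 to 5 in each group. In the group shKdm6b, an shRNA was directed against endogenous mouse Kdm6b, which encodes a histone H3K27 demethylase. In the active-domain rescue, the same shRNA was delivered together with an active enzymatic domain of human KDM6B, and in the dead-domain rescue together with a dead form of that domain. Control cultures made the fourth group, and what they were infected with is not given in the sources used here. Infection was on day in vitro (DIV) 1, cultures were given AraC, a drug that kills dividing cells, on DIV 2, and RNA was collected on DIV 7, per the labels. The study asked whether the catalytic domain alone can restore the expression of synaptic genes after knockdown. Nothing in the labels ties the libraries of a group to different cultures or animals, and p-values therefore cover only the spread between these libraries, which may be technical.

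Astrocytes clear glutamate and potassium from the synaptic cleft, move water across membranes rich in aquaporin and supply neurons with lipids carried on apolipoprotein E. Bergmann glia are the radial astrocytes of the cerebellar cortex, which arise from progenitors that express Sox9 and Fabp7 and wrap the synapses that granule cell axons make on Purkinje cells. Cultures of cerebellar granule neurons are mostly neurons, and AraC is added to hold down the glia that go on dividing.

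Promoter windows from RefSeq (assembly GRCm38.p6, 32841 windows of 300 bases in all, from 250 bases before to 50 after a start site) were matched for 8 of the 10 genes, which had 11 windows, while Aqp4 and Sox9 had no entry. The start sites of the windows of Slc1a2 and Aldh1l1 lie 47779 and 64366 bases inside the extent of their genes in GENCODE M21, that of 1 of the 2 windows of Hopx 19854 bases inside, and those of 2 of the 3 windows of Apoe 567 and 790 bases inside. The windows of Gfap, Slc1a3 and Fabp7 are printed because each holds a motif of a factor known to act on glial genes. The levels of these 3 genes also moved together over the 20 libraries, which share replicate numbers (Pearson r 0.85 to 0.95). As deviations from the mean of a number, r was -0.01 for Slc1a3 and Fabp7. On that scale Gfap had r of 0.40 with Slc1a3 and 0.58 with Fabp7. The letters TTCNNNGAA, a core bound by STAT factors, were searched on both strands. They were found in 2 of the 11 windows of the 8 genes (18.2%), those of Gfap and Slc1a3, against 8.3% of all windows. The letters TTGGC, a short motif of nuclear factor I, were found on either strand in 6 of the 11 windows (54.5%), 2 of Apoe and 1 each of Slc1a2, Gdf10, Hopx and Fabp7, against 46.7% of all windows. The motifs do not overlap in the windows shown. The genes themselves, in GENCODE M21 (GRCm38), are Gfap at chr11:102887336-102900912 (minus strand), Slc1a3 at chr15:8634124-8710764 (minus strand) and Fabp7 at chr10:57784881-57788450 (plus strand), and 2 others on which comparisons turn are Slc1a2 at chr2:102658659-102790784 (plus strand) and Aldh1l1 at chr6:90486427-90600203 (plus strand). Capitals mark the matches, and each window is read 5′ to 3′ on the strand of its gene.
Gfap, chr11:102897151-102897450, minus strand: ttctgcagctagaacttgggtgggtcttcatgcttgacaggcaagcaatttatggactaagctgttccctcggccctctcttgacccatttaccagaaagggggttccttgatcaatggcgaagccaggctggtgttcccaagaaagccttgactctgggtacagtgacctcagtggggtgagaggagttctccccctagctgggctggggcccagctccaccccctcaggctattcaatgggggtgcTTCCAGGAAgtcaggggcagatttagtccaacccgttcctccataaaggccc
Slc1a3, chr15:8710758-8711057, minus strand: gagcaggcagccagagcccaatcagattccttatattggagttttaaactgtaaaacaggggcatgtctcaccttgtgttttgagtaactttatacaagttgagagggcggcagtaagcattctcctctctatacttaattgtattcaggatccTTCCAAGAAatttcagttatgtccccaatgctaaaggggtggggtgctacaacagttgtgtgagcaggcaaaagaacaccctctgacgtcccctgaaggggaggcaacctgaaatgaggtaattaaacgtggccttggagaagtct
Fabp7, chr10:57784673-57784972, plus strand: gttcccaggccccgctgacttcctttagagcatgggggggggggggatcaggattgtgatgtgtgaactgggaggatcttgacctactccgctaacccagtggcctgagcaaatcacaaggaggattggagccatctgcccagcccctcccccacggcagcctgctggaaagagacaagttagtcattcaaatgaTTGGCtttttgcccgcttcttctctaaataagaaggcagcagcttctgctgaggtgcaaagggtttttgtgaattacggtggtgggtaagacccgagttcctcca
The match in the Gfap window, TTCCAGGAA, lies at bases 249 to 257 counted from the window's first base, across the annotated start site, which lies 3712 bases inside the extent of Gfap in GENCODE M21. That in the Slc1a3 window, TTCCAAGAA, lies at bases 155 to 163, and that in the Fabp7 window at bases 196 to 200. The data hold no measurement of binding at these sites.

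The libraries held 14200745 to 21179300 estimated counts and detected 16873 to 17351 genes. Kdm6b itself, the target of the shRNA, averaged 144 ± 40.5 CPM (counts scaled to library size with TMM factors; SD, n = 5) in control and 83.0 ± 28.3 CPM in shKdm6b, where 5 of 5 libraries lay below the control of their number. In the active-domain rescue it averaged 212 ± 109 CPM and in the dead-domain rescue 176 ± 92.2 CPM, with 2 of 5 libraries below the control of their number in each. The rescue values may include reads from the delivered human domain, which was not tested. Libraries that share a number resembled each other across groups, though the meaning of a number is not given in the labels. Libraries numbered 1 to 3 also stood apart from those numbered 4 and 5 in 2 abundant transcripts: Rn45s, the ribosomal precursor, took 2.43 to 7.24% of counts in the former and 0.206 to 0.611% in the latter, and Malat1, a nuclear long RNA, ranged over 4422 to 6888 CPM in the former and over 217 to 997 CPM in the latter. The part of either in the results below was not tested.

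All 10 markers were detected in all 20 libraries. Levels are compared between genes only per length, as CPM per kilobase of merged exons in GENCODE M21. On that scale Apoe, which encodes the lipid carrier apolipoprotein E, was the highest in control, with a median of 713 CPM per kb and a range of 459.7 to 3568 over 5 libraries. Gfap, the intermediate filament of astrocytes, followed with a median of 378 (119 to 1299), and Fabp7, the brain lipid-binding protein of radial glia, with 255 (45.2 to 935). Aqp4, the water channel of astrocyte endfeet, had a median of 109.9 (24 to 148). Slc1a3, which encodes the glutamate transporter GLAST, had 60.8 (12.9 to 76.9), and Hopx, a homeodomain protein found in radial glia and Bergmann glia, had 56.2 (7.89 to 175). Lower in the order stood Aldh1l1, a folate enzyme used as a pan-astrocyte marker, at 25.3 (9.0 to 90.1), Slc1a2, which encodes the glutamate transporter GLT-1, at 17.6 (8.27 to 21.7), and the transcription factor Sox9 at 11.2 (6.82 to 23.4). Gdf10, a secreted ligand of the TGF-beta family that is known from Bergmann glia, was the lowest at 1.95 CPM per kb (1.55 to 2.54).

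The ranges of each pair of neighbours in this order overlapped, except that Gdf10 lay below Sox9 in every control library. Apoe, Gfap and Fabp7 held the first 3 places by median, and Gdf10 the last, in all 4 groups. The places of Aqp4, Hopx and Slc1a3, and those of Slc1a2 and Sox9, changed between groups.

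The levels of the markers differed between replicate numbers. Of the 10 genes, 10 differed between numbers by the F-test of edgeR's quasi-likelihood fit with group in the model, with adjusted p from 2.72e-11 (Fabp7) to 4.63e-05 (Gdf10). Across all genes the share called by that test was 84.7%, so a call by this test is common among genes. The span between the highest and the lowest number, in mean log2 CPM, had a median of 2.57 over the 10 markers and of 0.96 over all genes tested. Of the markers 7, or 70.0%, were highest in number 4 and lowest in number 5, as were 13.7% of all genes.

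Among the genes of radial and Bergmann glia, Fabp7 spread the most. The 4 libraries numbered 4 held 1168, 1376, 898 and 1193 CPM in control, shKdm6b, active-domain rescue and dead-domain rescue, and those numbered 5 held 56.5, 59.1, 61.2 and 78.3 CPM in the same order. Every library numbered 4 was above all others and every library numbered 5 below them, with 569.9 to 645 CPM in number 1, 319 to 420.4 in number 2 and 238 to 345 in number 3. The mean of number 4 was 18.2 times that of number 5, and this span was at percentile 99.0 of all genes tested. Hopx ran alongside, with 265, 309, 239 and 265 CPM in number 4 and 12, 17.4, 18.7 and 18.7 CPM in number 5, a ratio of 16.1. Their log2 CPM had a Pearson r of 0.99 over the 20 libraries, which share numbers. Gdf10 did not follow them: it stood at 13.2, 16.1, 22.4 and 16.5 CPM in number 4 and 8.06, 7.75, 11.1 and 9.69 CPM in number 5, a ratio of 1.86, and its lowest mean was in number 1, at 7.45 ± 1.17 CPM (SD, n = 4). Its span was at percentile 61.9 of all genes.

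The general astrocyte genes Gfap, Aldh1l1 and Sox9 had the same order of numbers at their ends. Gfap reached 5479.8, 4489, 4723 and 4699.6 CPM in number 4 and 502, 516, 718 and 657 CPM in number 5, with 2018 to 2306, 1446 to 1956 and 772 to 1399 CPM in numbers 1, 2 and 3. Aldh1l1 stood at 407, 597, 488 and 513 CPM in number 4 and at 40.6, 44.3, 52.9 and 49.3 CPM in number 5. For both genes number 4 was the highest and number 5 the lowest in 4 of 4 groups, with mean ratios of 8.10 and 10.7. Sox9, which specifies astrocyte progenitors, spread less, from 28.8 ± 1.07 CPM in number 5 to 128 ± 24.9 CPM in number 4 (SD, n = 4), a ratio of 4.45. Apoe, which microglia also make, was at 7627, 6977, 3199 and 4315 CPM in number 4 and 983, 1016, 1249 and 1136 CPM in number 5, and in 4 of 4 groups number 4 was again the highest and number 5 the lowest.

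The genes of astrocyte membranes, which serve glutamate uptake and water flow, divided. Aqp4 and Slc1a3 were lowest in number 5 in 4 of 4 groups, at 149.9 to 199.5 and 109.9 to 135 CPM. Number 4 was their highest in 1 and 2 groups, and in mean log2 CPM Aqp4 was highest in number 1. Slc1a2 ran the other way. It stood at 109, 80.6, 125 and 88.5 CPM in number 4 and 285, 175, 228 and 218 CPM in number 5, where its mean was 2.25 times that of number 4. The ratio of Slc1a3 to Slc1a2, in CPM without scaling to length, ran from 0.386 to 0.693 in number 5, from 4.78 to 10.4 in number 4 and from 2.81 to 5.41, 2.57 to 3.92 and 2.93 to 5.55 in numbers 1, 2 and 3, so that number 5 lay below all other libraries.

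**Figure D1:**
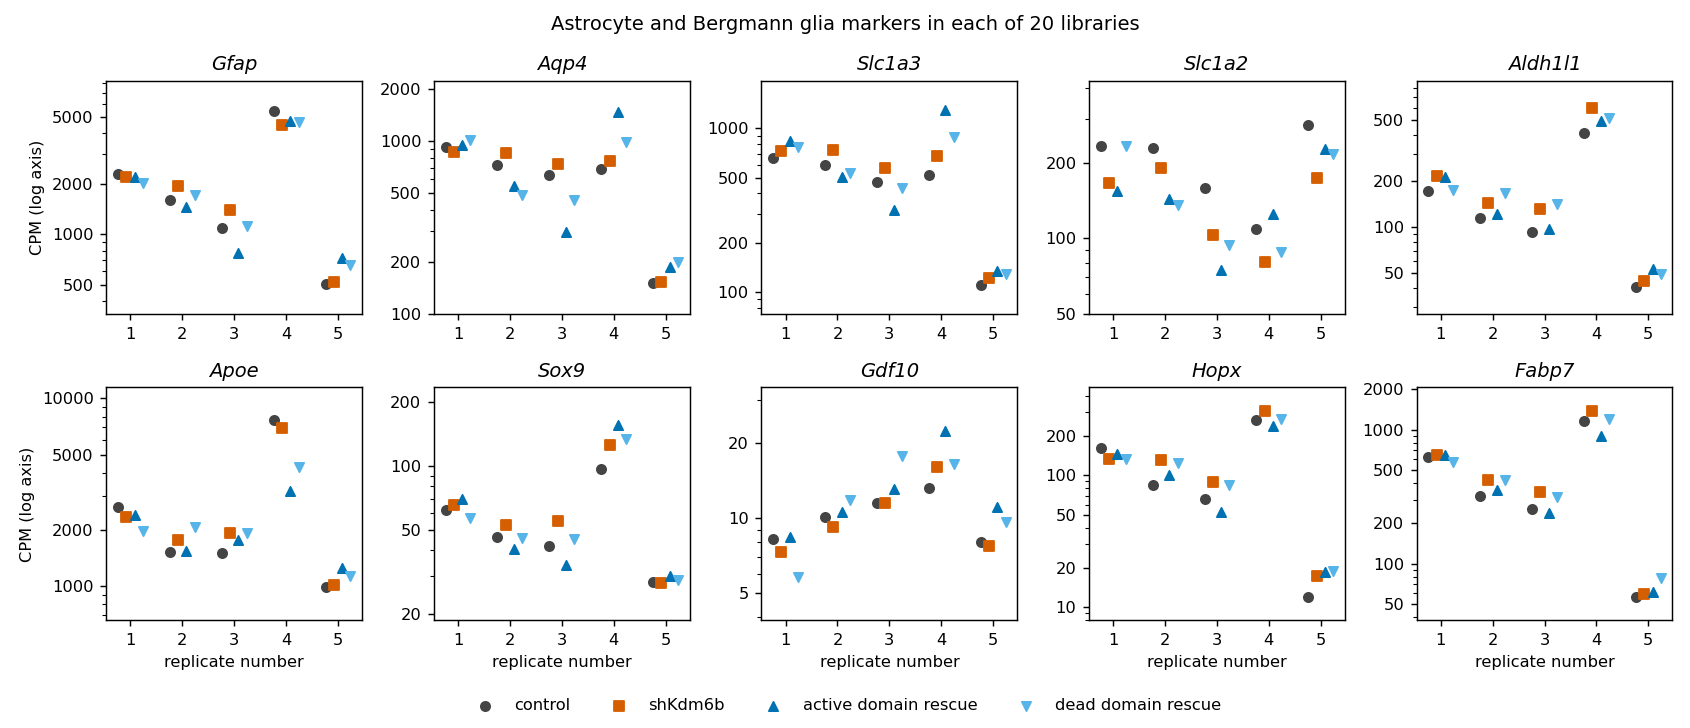
Level of each of the 10 glial markers in every library, in CPM on a log axis, by replicate number; each point is 1 library and its colour and shape give the group. Number 4 holds the 4 highest points and number 5 the 4 lowest for Gfap, Aldh1l1, Apoe, Sox9, Hopx and Fabp7, while Slc1a2 runs the other way at numbers 4 and 5.

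Without Slc1a2 and Gdf10, the log2 CPM of the other 8 markers correlated in all 28 pairs, with Pearson r from 0.64 to 0.99 over 20 libraries. Slc1a2 was negatively correlated with all 9 others, from -0.72 to -0.27, and Gdf10 had r of 0.21 to 0.51 with the 8. These values describe libraries that share numbers. Taken as deviations from the mean of the 4 libraries of a number, the highest r were those of Aqp4 and Slc1a3 (0.90), Slc1a3 and Sox9 (0.90) and Hopx and Fabp7 (0.81). Other pairs of the 8 were near 0 or below, such as Slc1a3 and Fabp7 (-0.01), Aqp4 and Fabp7 (0.02) and Apoe and Sox9 (-0.32). Without the libraries numbered 4 these pairs had, in the same order, r of 0.90, 0.87, 0.83, 0.55, 0.40 and 0.41 over 16 libraries. Slc1a3 and Apoe had r = -0.61 on that scale, which became 0.11 without number 4.

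Gene lists of other cell types varied by number as well. The summed level of the 10 markers was 12623 to 16369.6 CPM in number 4, 3656 to 7771 CPM in numbers 1 to 3 and 2137 to 2689 CPM in number 5. Apoe and Gfap together made 57.5 to 80.1% of this sum in a library, so it mainly follows these 2 genes. The 15 listed granule neuron genes, all detected in every library, summed to 1671 to 2879.7 CPM in number 4 and 5034 to 9529.9 CPM in all other libraries, so the libraries richest in glial transcripts were the poorest in granule neuron transcripts. In bulk RNA, fewer cells of a type and less RNA per cell cannot be told apart. The 10 fibroblast and meningeal genes, all detected in every library, summed to 24861 to 32470.2 CPM in number 5 and 5157 to 18057 CPM in numbers 1 to 3. The 15 microglial genes, all detected in every library, summed to 1025 to 1298 CPM in number 1 and 313 to 445 CPM in number 3. In number 4 their sum was 2135 CPM in control, 797 in shKdm6b, 450.1 in the active-domain rescue and 577 in the dead-domain rescue. Oligodendrocyte lineage genes, of which Enpp6 was at 0 in some libraries, summed to 909 to 1210.1 CPM in number 5 and 111 to 161 CPM in number 2. Endothelial and mural genes, with Cldn5 and Kcnj8 at 0 in some libraries, summed to at most 66.7 CPM.

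**Figure D2:**
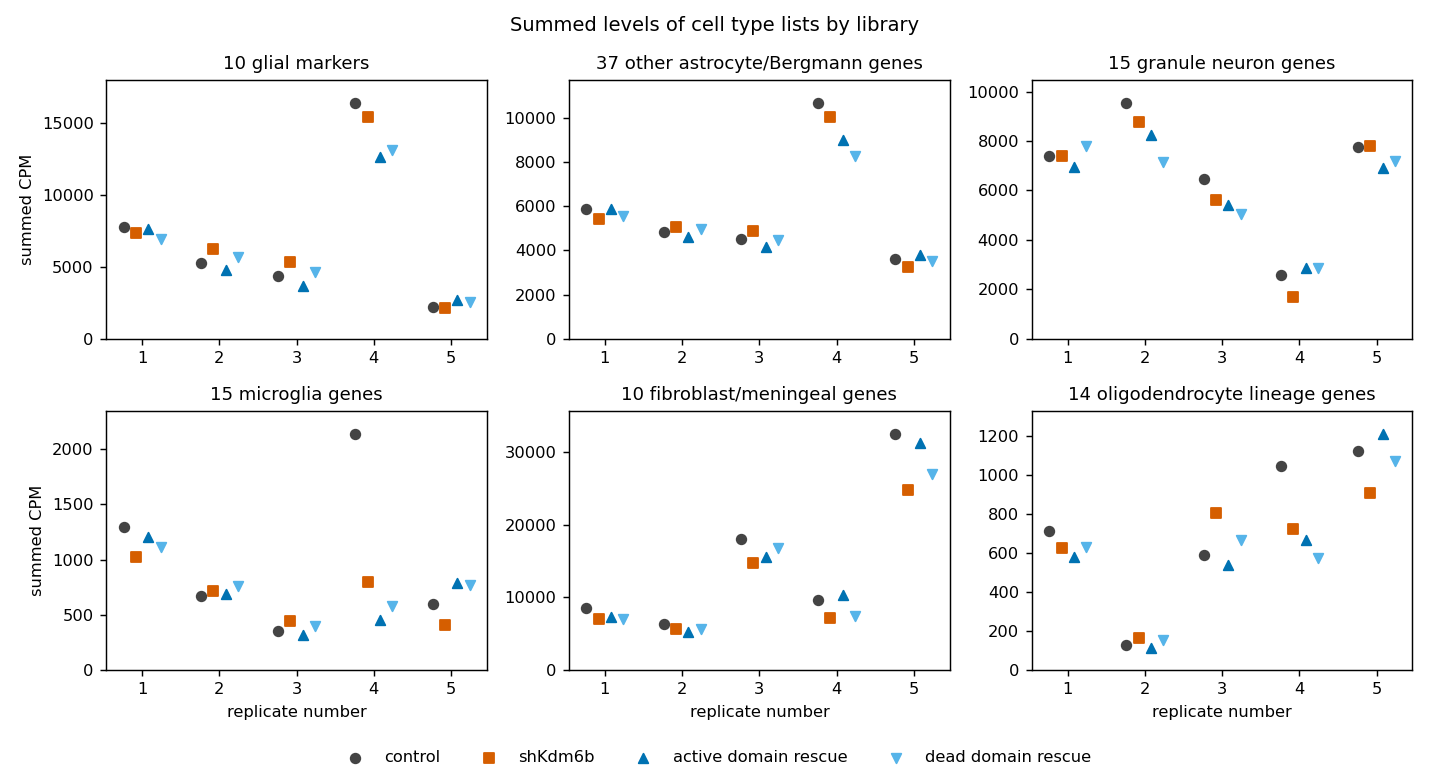
Summed CPM of cell type gene lists in every library, by replicate number, on linear axes that start at 0; each point is 1 library and its colour and shape give the group. The 10 glial markers peak in number 4, between 12623 and 16369.6 CPM, where the granule neuron genes are lowest.

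A further list of 37 astrocyte and Bergmann glia genes that are not among the 10 was read by number in the same way. Of its 35 tested genes, 34 were called by the test of number, as were 84.7% of all genes tested. The median span was 2.09, beside 0.96 over all genes, and 16 (45.7%) were highest in number 4 and lowest in number 5, as were 13.7% of all genes. Its sum was 8260.3 to 10669.5 CPM in number 4 and 3252 to 3785 CPM in number 5. Cldn10 and Dao of this list were at 0 in some libraries. Of 14 genes of glial progenitors, mostly transcription factors with Nes, Vim and Tnc added, 4 were highest in number 4 and lowest in number 5, or 28.6%. Of reactive astrocyte genes this held for 2 of 18, or 11.1%, beside 13.7% of all genes tested. The differences between these shares were not tested.

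After knockdown of Kdm6b, no glial marker passed the test in edgeR's fits of all 20 libraries. Slc1a2, for the glutamate transporter GLT-1, was lower than the control of its number in 5 of 5 shKdm6b libraries. Slc1a3, Aldh1l1 and Fabp7 were higher in 5 of 5, while Gfap and Apoe had estimates near 0. In edgeR's quasi-likelihood fit without the number, 0 of the 10 markers passed an adjusted p of 0.05 between shKdm6b and control, and 0 had an unadjusted p below 0.05. Across all genes 0.00654% were called in that fit. Since libraries with a shared number vary together, the fit with the number as a block is given beside it. There too 0 of 10 markers passed, where 4.14% of all genes did. An unadjusted p below 0.05 was reached by 4 of the 10 markers and by 14.9% of all genes with the block, and by 3.12% of all genes without it. DESeq2 with the block called 2 of the 10, Slc1a2 and Aldh1l1, and 6.3% of all genes, and without it 0 of the 10 and 0.428% of all genes. The SE of a marker's log2 fold change was 0.31 to 0.82 without the block and 0.11 to 0.24 with it. Log2 fold changes below are from edgeR's fit with the block, given ± SE, with adjusted p over all 15284 genes. The median over the 10 markers was 0.16, beside 0.01 over all genes.

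The nearest to a call was Aldh1l1. Its 5 control libraries, numbers 1 to 5, held 171, 114, 92.5, 407 and 40.6 CPM. The shKdm6b libraries held 214, 144, 132, 597 and 44.3 CPM. The active-domain libraries held 213, 122, 97.7, 488 and 52.9 CPM, and the dead-domain libraries 175, 166, 141, 513 and 49.3 CPM. The groups overlapped, but each library of the other 3 groups was above the control of its number. The log2 difference from control was 0.37 ± 0.11 in shKdm6b (95% interval 0.15 to 0.60, adjusted p = 0.0598), 0.23 ± 0.11 in the active-domain rescue (adjusted p = 0.361) and 0.37 ± 0.11 in the dead-domain rescue (adjusted p = 0.123). The 3 comparisons share their 5 control libraries. Without the block the difference in shKdm6b was 0.45 ± 0.73 (adjusted p = 1.00). DESeq2 with the block gave adjusted p = 0.0235 for shKdm6b and 0.0452 for the dead-domain rescue. Over the 17 settings with the block, edgeR and DESeq2, the adjusted p for shKdm6b ran from 0.0235 to 0.904, and that for the dead-domain rescue from 0.0452 to 0.950.

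Slc1a2 had the most negative estimate of the 10 markers in each of the 3 groups set against control. Control libraries 1 to 5 held 234, 231, 159, 109 and 285 CPM. The shKdm6b libraries held 167, 191, 103, 80.6 and 175 CPM. In the active-domain rescue the values were 155, 145, 74.8, 125 and 228 CPM, and in the dead-domain rescue 234, 136, 93.7, 88.5 and 218 CPM. Every shKdm6b library was below the control of its number, at 61.6 to 82.6% of it, while the groups as a whole overlapped. In the fit without the block the difference in shKdm6b was -0.51 ± 0.34 (adjusted p = 1.00). In the active-domain rescue 4 of 5 were below, with number 4 at 115% of its control, and in the dead-domain rescue 4 of 5, with number 1 at 100.3%. The log2 difference from control was -0.50 ± 0.16 in shKdm6b (95% interval -0.84 to -0.16, adjusted p = 0.107), -0.48 ± 0.16 in the active-domain rescue (-0.82 to -0.14, adjusted p = 0.172) and -0.44 ± 0.16 in the dead-domain rescue (-0.78 to -0.09, adjusted p = 0.274).

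For Slc1a2, 2 comparisons passed the threshold once the libraries numbered 4 were left out. Without all 4 of them, the edgeR fit with the block gave -0.54 for shKdm6b (adjusted p = 0.0461) and -0.68 for the active-domain rescue (adjusted p = 0.0192), both against control. That fit called 6.5% and 4.6% of all genes in these comparisons. Leaving out active-domain library 4 alone gave -0.65 (adjusted p = 0.0184), where 2.5% of all genes were called. Over the 17 settings with the block the adjusted p for shKdm6b ran from 0.0427 to 0.624, that for the active-domain rescue from 0.0170 to 0.820, and that for the dead-domain rescue from 0.107 to 0.950. Between each rescue and shKdm6b the difference in Slc1a2 was 0.02 ± 0.16 (active domain, 95% interval -0.32 to 0.37) and 0.07 ± 0.16 (dead domain, -0.27 to 0.41).

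Slc1a3, the other glutamate transporter, had values in the opposite direction to Slc1a2 after knockdown. It averaged 469 ± 213 CPM in control and 568 ± 258 CPM in shKdm6b (SD, n = 5), with 5 of 5 shKdm6b libraries above the control of their number. The log2 difference was 0.26 ± 0.19 (95% interval -0.15 to 0.67, adjusted p = 0.623). Fabp7 was also higher in 5 of 5 pairs, with means of 485 ± 433 and 569 ± 498 CPM and a log2 difference of 0.24 ± 0.11 (adjusted p = 0.315). Thus 3 markers, Slc1a3, Aldh1l1 and Fabp7, were higher in 5 of 5 pairs, where 12.9% of all genes were, and 1, Slc1a2, was lower in 5 of 5, where 11.9% were. For Hopx the difference was 0.29 ± 0.14 (adjusted p = 0.329) with 4 of 5 pairs higher, and for Sox9 0.20 ± 0.12 with 4 of 5 (adjusted p = 0.500).

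The smallest estimated differences after knockdown were those of Gdf10, Apoe and Gfap. Gfap averaged 2195 ± 1952 CPM in control and 2111 ± 1478 CPM in shKdm6b, where the SDs over numbers exceed the difference by far. Its log2 difference was 0.08 ± 0.14, with an interval of -0.23 to 0.38. Apoe averaged 2853 ± 2736 and 2799 ± 2383 CPM, with a log2 difference of 0.04 ± 0.19 and an interval of -0.35 to 0.44. Gdf10 had -0.02 ± 0.15 (-0.33 to 0.29), and Aqp4 0.11 ± 0.24 (-0.39 to 0.62). Differences inside these intervals are not excluded by the data.

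**Figure D3:**
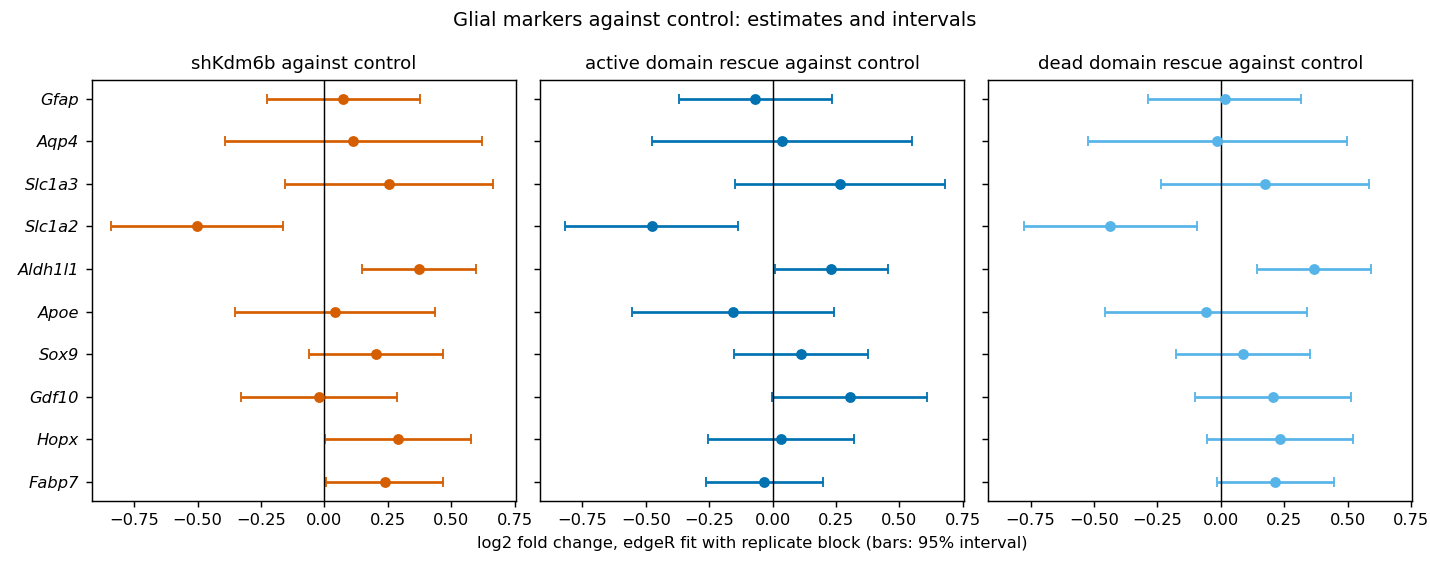
Log2 fold change of each of the 10 markers against control in shKdm6b, the active-domain rescue and the dead-domain rescue, from edgeR's fit with the replicate block; points are estimates and bars 95% intervals. Slc1a2 lies below 0 and Aldh1l1 above 0 in all 3 panels with intervals that leave out 0, yet neither passed an adjusted p of 0.05, and the panels share their control libraries.

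The rescue comparisons asked whether either domain moved the markers from their level after knockdown. Between the active-domain rescue and shKdm6b, edgeR called 0 of 10 markers with or without the block, against 0% of all genes without it and 0.00654% with it, and DESeq2 called 0 markers in both fits, beside 0% and 0.137% of all genes. Unadjusted p was below 0.05 for 0 markers and 0.327% of all genes without the block, and for 2 markers, Gdf10 and Fabp7, and 3.78% of all genes with it. Gdf10 was higher in the active-domain rescue in 5 of 5 pairs, the only marker of which this held, as it did for 2.66% of all genes, and 0 markers were lower in 5 of 5, as 1.64% of all genes were. Its shKdm6b libraries held 7.33, 9.19, 11.5, 16.1 and 7.75 CPM and its active-domain libraries 8.39, 10.6, 13.1, 22.4 and 11.1 CPM, in the order of their numbers, and the groups overlapped. The log2 difference was 0.33 ± 0.14 (95% interval 0.02 to 0.63, adjusted p = 1.00). Fabp7 had -0.27 ± 0.11 (-0.50 to -0.04, adjusted p = 1.00), although only 3 of 5 pairs were lower. Over the 10 markers the median was -0.12, beside 0.01 over all genes.

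With the dead domain against shKdm6b, 0 of 10 markers were called by edgeR in both fits, 0 by DESeq2 in both, and 0 had an unadjusted p below 0.05 in either edgeR fit. The shares of all genes called were 0% without and 0% with the block by both tools, and an unadjusted p below 0.05 was reached by 0.164% and 1.4% of all genes in the edgeR fits. No marker was higher or lower in 5 of 5 pairs, which held for 1.75% and 1.54% of all genes. The differences ran from -0.13 (Aqp4) to 0.23 (Gdf10), and the 95% intervals of the 10 together reached from -0.64 to 0.53.

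The test between the domains gave 0 calls of 10 in both edgeR fits and both DESeq2 fits, against 0% and 0.00654% of all genes by edgeR and 0% and 0.0196% by DESeq2, without and with the block. Fabp7 alone had an unadjusted p below 0.05 with the block, as did 2.72% of all genes, and 0 markers did without it, beside 0.242% of all genes. It held 645, 353, 238, 898 and 61.2 CPM in active-domain libraries 1 to 5 and 569.9, 420.4, 316, 1193 and 78.3 CPM in the dead-domain libraries. The active-domain library was the lower of its pair in 4 of 5 numbers, and the groups overlapped. No marker was higher or lower in 5 of 5 pairs, which held for 3.49% and 2% of all genes. The log2 difference of Fabp7 was -0.25 ± 0.11 (interval -0.48 to -0.02, adjusted p = 1.00). For the other 9 markers every interval included 0, and the widest, that of Aqp4, ran from -0.46 to 0.56.

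Against control, each rescue gave 0 calls of 10 by edgeR in both fits. The share of all genes called with the block was 1.96% for the active domain and 1.18% for the dead domain, and 0% and 0% without it. In each, 2 markers, Slc1a2 and Aldh1l1, had an unadjusted p below 0.05 with the block, as did 13% of all genes for the active and 10.7% for the dead domain. Without the block 0 markers did, beside 2.53% and 1.81% of all genes. DESeq2 without the block called 0 markers in both, and 0.164% and 0.111% of all genes. With the block it called 0 markers and 4.18% of all genes for the active domain, and 1 marker, Aldh1l1, and 3.05% of all genes for the dead domain. Aldh1l1 and Gdf10 were higher in 5 of 5 pairs with the active domain (6.83% of all genes) and Aldh1l1 with the dead domain (6.48%). None was lower in 5 of 5 pairs, as 4.51% and 5.65% of all genes were. The Gdf10 difference from control was 0.30 ± 0.14 with the active domain (-0.00203 to 0.61, adjusted p = 0.389) and 0.21 ± 0.15 with the dead domain (-0.10 to 0.51, adjusted p = 0.739).

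In the libraries numbered 4, both rescues lay above control for Slc1a3, Aqp4 and Sox9. Slc1a3 stood there at 519, 681, 1296 and 887 CPM in control, shKdm6b, active-domain and dead-domain rescue, a log2 difference from control of 1.32 with the active domain and 0.77 with the dead domain. Aqp4 stood at 685, 761, 1475 and 982 CPM, with differences of 1.11 and 0.52, and Sox9 at 96.6, 126, 157 and 134 CPM, with 0.70 and 0.47. In number 3 the active-domain library was below control in both membrane genes, with log2 differences of -1.10 for Aqp4 and -0.56 for Slc1a3. Without number 4 the fitted difference between the active-domain rescue and control was -0.04 for Slc1a3 and -0.29 for Aqp4, in place of 0.26 and 0.04.

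Apoe went the other way in these libraries. Its level in number 4 was 7627, 6977, 3199 and 4315 CPM in the same order of groups, so the active-domain library lay -1.25 and the dead-domain library -0.82 from control in log2. The microglial sum in the same 4 libraries was 2135, 797, 450.1 and 577 CPM, and its part in the Apoe values was not tested. In numbers 1, 2, 3 and 5 the active-domain library lay -0.14, 0.01, 0.23 and 0.35 from control. Without number 4 the fitted difference was 0.09, in place of -0.16. Whether number 4 responded differently from the others was not tested.

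**Figure D4:**
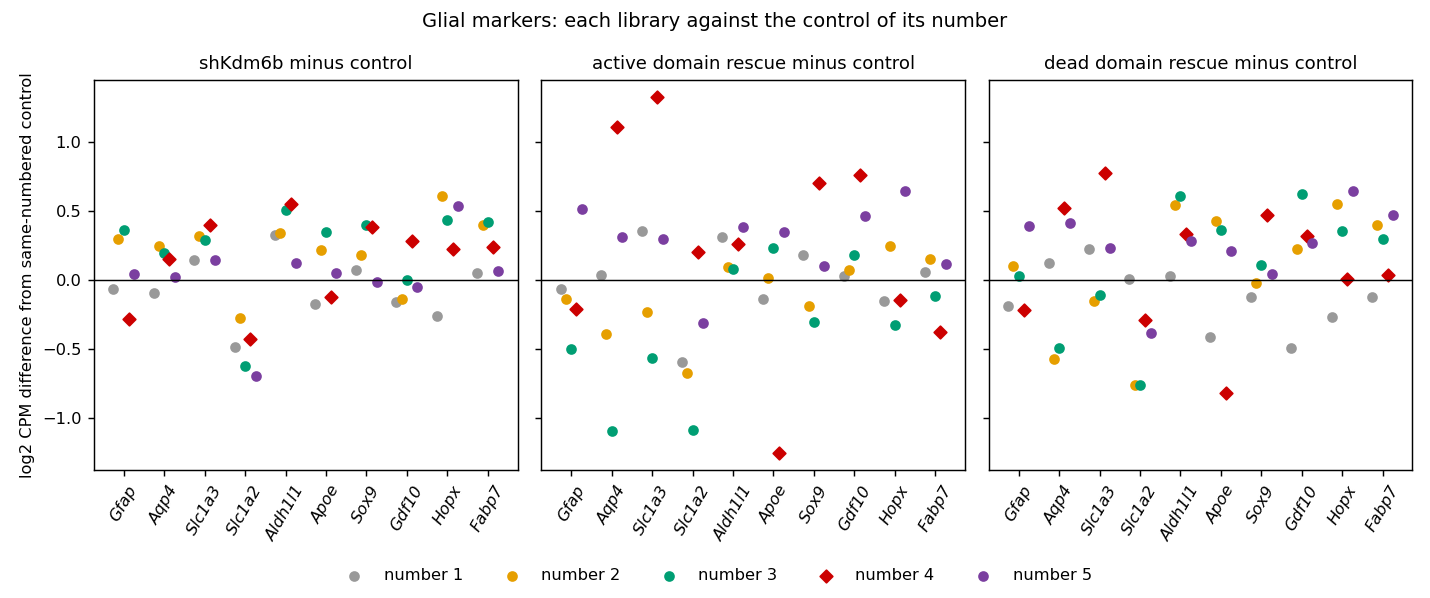
Difference in log2 CPM between each library and the control library of its number, for the 10 markers in shKdm6b, the active-domain rescue and the dead-domain rescue; each point is 1 pair, colours give the number and diamonds mark number 4. With the active domain, number 4 is highest for Slc1a3 (1.32) and Aqp4 (1.11) and lowest for Apoe (-1.25).

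Among the other astrocyte and Bergmann glia genes, 1 of 35 tested was higher and 1 lower in shKdm6b than in control by edgeR with the block, and 33 did not pass, with a median log2 fold change of 0.05. The 2 calls are a share near the 4.14% of all genes called in that fit. Mlc1, a membrane protein of astrocyte endfeet, rose by 0.31 ± 0.08 (adjusted p = 0.0385; 5 of 5 pairs). Atp1b2, a subunit of the sodium pump, changed by -0.36 ± 0.10 (adjusted p = 0.0435; lower in 5 of 5 pairs). Mlc1 was also higher with the active domain than in control, by 0.32 ± 0.08 (adjusted p = 0.0483). No gene of this list passed in the other 4 comparisons. Without the block 0 of 35 passed in any of the 6. In shKdm6b against control, 0 of 35 had an unadjusted p below 0.05 without the block, beside 3.12% of all genes. With the block 9 of 35 did, beside 14.9% of all genes.

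Genes of glial progenitors, reactive astrocyte genes and the ligands, receptors, antagonists and signal carriers of the BMP and TGF-beta pathways had 1 or 2 calls each, again by edgeR with the block. That fit called 4.14% of all genes in shKdm6b and 1.96% in the active-domain rescue against control. With lists of 12 to 23 genes, such counts are too small to set a list apart from all genes. Nfia, which drives the switch to glial fates, was lower in shKdm6b (log2 fold change -0.38 ± 0.09, adjusted p = 0.0285), the 1 of 14 progenitor genes to pass. It was also lower than control with the active domain (-0.38 ± 0.10, adjusted p = 0.0490). Nfia ranged from 94.8 to 170 CPM over the 20 libraries, and the cells that made it cannot be told from bulk RNA. Of 18 reactive astrocyte genes, the chemokine gene Cxcl10 was higher in shKdm6b by 1.5 ± 0.28 (adjusted p = 0.00576) and Emp1, a membrane protein, lower (-0.44 ± 0.10, adjusted p = 0.0138). Cxcl10 also passed with the active domain, at 1.18 ± 0.29 (adjusted p = 0.0440). Of 23 BMP and TGF-beta genes, 2 were lower in shKdm6b: Chrd, which encodes the BMP antagonist chordin, at -0.44 ± 0.11 (adjusted p = 0.0253) and Smad1, which carries BMP signals to the nucleus, at -0.34 ± 0.09 (adjusted p = 0.0364). Chrd alone of these passed with the active domain, at -0.48 ± 0.11 (adjusted p = 0.0263). Of 12 genes for the lipoprotein partners of Apoe, 0 passed in any comparison by edgeR. Between shKdm6b and control, 3 had an unadjusted p below 0.05 in the fit with the block, as did 14.9% of all genes.

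Marker lists of other cells were read in shKdm6b against control by the same fit, in which 4.14% of all genes were called and 14.9% had an unadjusted p below 0.05. Of 15 microglial genes, 0 had a positive log2 fold change and 1, Tmem119, passed (-0.67 ± 0.17, adjusted p = 0.0293), with a median of -0.38. Of all 15284 genes, 7969 had a positive one. The summed level of the 15 microglial genes went both ways between pairs. It was 1025, 797 and 407 CPM in shKdm6b libraries 1, 4 and 5, below 1298, 2135 and 600 CPM in their controls. In numbers 2 and 3 shKdm6b was the higher, at 714 and 445 CPM against 670 and 355 CPM. Tmem119 held 5.98 to 8.96 CPM in number 1 and 21.9 to 32.4 CPM in number 3, the reverse of the microglial sum over these numbers. Of 15 granule neuron genes, 4 were lower: Grin2c, an NMDA receptor subunit of mature granule cells, had a log2 fold change of -1.47 ± 0.28 (adjusted p = 0.00543), the transcription factor Etv1 -1.02 ± 0.18 (adjusted p = 0.00383), the vesicular glutamate transporter gene Slc17a7 -0.95 ± 0.26 (adjusted p = 0.0444) and the cerebellin gene Cbln3 -0.77 ± 0.13 (adjusted p = 0.00183). The fifth to pass, Pax6, which was named after its values were seen, was higher by 0.41 ± 0.11 (adjusted p = 0.0426). Against control, the dead-domain rescue also had lower Grin2c (-1.22 ± 0.27, adjusted p = 0.0397) and Etv1 (-0.81 ± 0.18, adjusted p = 0.0412). Of 14 oligodendrocyte lineage genes 1 passed, Cspg4 at -0.59 ± 0.14 (adjusted p = 0.0233), and of 8 cycling genes 1, Rrm2 at -1.06 ± 0.15 (adjusted p = 0.000637). Rrm2, a subunit of ribonucleotide reductase, was lower than control with the active domain too (-1.02 ± 0.15, adjusted p = 0.00227) and with the dead domain (-0.76 ± 0.15, adjusted p = 0.0177). None of the 10 fibroblast and meningeal, 8 endothelial and mural or 6 choroid and ependymal genes passed by edgeR, with 7, 1 and 2 at an unadjusted p below 0.05. The part of any of these cell types in the values of the 10 markers was not tested.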

How the data were processed

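RNA-seq was measured in 20 libraries, 5 per group, assigned by the labels. The expected counts per gene were deposited by the authors as 1 table, whose name gives salmon and merged gene counts; 7.03 to 11.2% of a library's values were not whole. Per the submitters' processing notes, mm10 was the build. For the version of salmon, the annotation, trimming and strand, nothing is stated in the labels. Salmon divides reads that fit several transcripts, so values of overlapping or near-identical genes are uncertain.

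Counts were rounded, filtered with filterByExpr (9127 genes removed) and scaled with TMM. Groups were compared in pairs with edgeR 4.0.16 (R 4.3.3; quasi-likelihood, robust, two-sided, Benjamini-Hochberg over 15284 genes, threshold 0.05) on all 20 libraries, with DESeq2 1.42.0 as an alternative. Plots and correlations use log2 CPM with a prior count of 1. The steps were tested on simulated data.

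The replicate number was checked as a pairing before calls were compared: in 30 of 30 same-numbered pairs the deviations from the group mean were positively correlated over genes (r 0.361 to 0.881), and 20 of 20 libraries correlated best with their own number, so fits with the number as a block stand beside the main ones. The chi-square per degree of freedom between libraries within a group was 28.4 to 408, far above sampling noise, and all 20 were kept. The markers and lists were chosen with earlier results of these data known. All 10 markers are described, and of other lists at most 4 genes per comparison that passed with the block.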

Additional observations from a re-analysis of the deposited data

Results flagged for a closer look

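In a group of 5 libraries, a value was singled out where its gap to the nearest other library was above 0.710 of the group's range (Dixon's test). Of 40 sets tested (10 markers in 4 groups) 7 were singled out, and chance flags about 1 in 20 independent sets. The 40 sets are not independent, since the markers vary together and the numbers recur in all 4 groups. Of these, 5 were high values in libraries numbered 4. Apoe stood at 7627 CPM in control library 4, at 6977 CPM in shKdm6b library 4 and at 4315 CPM in dead-domain library 4, where the next highest libraries held 2626, 2325 and 2050.5 CPM. In dead-domain library 4, Aldh1l1 stood at 513 CPM, with 175 CPM next, and Sox9 at 134 CPM, with 56.8 CPM next. The other 2 were low values in shKdm6b library 5: Aqp4 at 152 CPM, with 729 CPM next, and Slc1a3 at 121 CPM, with 572 CPM next.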

How the results depend on the processing

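The replicate block left the count of markers called by edgeR at 0 of 10 in all 6 comparisons, while the count over all genes between shKdm6b and control went from 1 to 632, between the active-domain rescue and control from 0 to 299 and between the dead-domain rescue and control from 0 to 181. DESeq2 with the block called 2 markers in shKdm6b against control (Slc1a2 and Aldh1l1) and 1 in the dead-domain rescue against control (Aldh1l1). Without the libraries numbered 4, the block fit of edgeR called 1 marker, Slc1a2, in shKdm6b against control and 1, again Slc1a2, in the active-domain rescue against control. In the latter comparison the same fit on numbers 1 to 3 alone also gave 1 (Slc1a2 at -0.80, adjusted p = 0.0170), where 2.97% of all genes were called. With single libraries left out, the count ran from 0 to 1 in the active-domain rescue against control (1 without active-domain library 4). It also ran from 0 to 1 in the dead-domain rescue against control. There the block fit without dead-domain library 1 called Aldh1l1 (0.45, adjusted p = 0.0471) and 1.16% of all genes. The count was 0 in the other 4 comparisons. The cause was not tested. Other size factors, no low-count filter, fits of only the groups compared, DESeq2 without the block, and numbers 4 and 5 alone gave 0 calls. The test of number called 10 of 10 under every alternative run for it. In the main fit that test called 84.7% of all genes, and the share of all genes under its alternatives was not recorded. Of 1920 single-marker values under alternatives 8 passed the threshold, and 0 of these had a direction opposite to the main fit. The main fit called no marker between groups, so it held no call that an alternative could reverse. In 354 values, from 52 of the 60 marker comparisons, the direction turned with neither value passing.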

Other observations

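The genes most like 3 of the markers were taken as the 5 with the highest Pearson r of log2 CPM over the 20 libraries, which share numbers, and are given as a description. For Slc1a3 they were Gpm6b, Slc35f1, Gria1, Stk32a and Prex1 (r = 0.97 to 0.98). For Gfap they were Plekhb1, Sfxn5, Lect1, Igsf11 and Ttyh1 (r = 0.97 to 0.99), and for Apoe Ckb, Tst, Metrn, Cotl1 and Cst3 (r = 0.97 to 0.98). Taken within numbers, as deviations from the mean of the 4 libraries of a number, the 2 genes nearest to Slc1a3 were Paqr8 (r = 0.98) and Itga6 (r = 0.95). The 5 nearest to Gfap were Frmd4b, Nckap1l, Treml2, Col26a1 and Cd180 (r = 0.87 to 0.90), of which Nckap1l, Treml2 and Cd180 are known from blood and myeloid cells, and the 5 nearest to Apoe were Tcirg1, Ckb, Msrb1, Ppm1m and Atp1b3 (r = 0.94 to 0.97). Ckb, the brain creatine kinase, was in both lists of Apoe.

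Of 6 genes listed for choroid plexus and ependyma, 5 were highest in number 4, as were 32.9% of all genes tested. Of the 6, 3 were highest in number 4 and lowest in number 5, as were 13.7% of all genes tested. Their sum was 1189 to 2299.5 CPM in number 4, 1355 to 1825 CPM in number 5 and 268 to 979 CPM in numbers 1 to 3. Most of this sum was Ttr, with a median of 705 CPM over the 20 libraries. The other genes of the list had medians of 0.774 to 27.6 CPM, so the sum mainly follows 1 gene. Of 8 endothelial and mural genes 6, and of 10 fibroblast and meningeal genes 7, were highest in number 5, as were 24.5% of all genes tested.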
